A study of Mus musculus with 6 samples.

Results

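The mammalian clock was followed here through 10 genes: the activators Arntl (BMAL1) and Clock, the repressors Per1, Per2, Per3, Cry1, Cry2, Nr1d1 and Nr1d2, and the output factor Dbp. They were matched by symbol to 10 of the 55401 gene models in the count tables, and all 10 had enough counts to be tested. RNA came from RAW264.7, a mouse macrophage line derived from a tumour that Abelson leukaemia virus had induced. The design has 2 groups of 3 libraries each. One is labelled control siRNA with a WT genotype, and the other Nop16 siRNA with a Nop16 knockdown (KD) genotype. The Nop16 siRNA was used at 20 nM for 3 days with a lipid reagent. The treatment text is the same for all 6 samples, so the handling of the controls, the siRNA sequences, the hour of harvest and any synchronisation of the cells have no statement in the sources at hand. Nothing states that the replicates were separate cultures, so errors measure only the spread between these libraries.

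The clock runs on a feedback loop of transcription. The BMAL1 and CLOCK proteins bind E-boxes and switch on the Per and Cry genes, the Nr1d genes and Dbp. PER and CRY proteins then shut off that activation. The products of Nr1d1 and Nr1d2, REV-ERB alpha and REV-ERB beta, bind ROR elements and hold down Arntl, while DBP acts through D-boxes. In macrophages the clock sets the time of day at which inflammatory genes respond most, and REV-ERBs repress several of those genes directly.

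The members were selected on results of the comparison described here: Dbp was among the largest falls, and the remaining 9 genes were added for their place in the loop with those results known. Values of the 10 genes are therefore a description. They come from the edgeR quasi-likelihood fit over all genes, and "fell" is used for genes with a Benjamini-Hochberg adjusted p below 0.05 in that fit, but no p is given for a member.

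Stretches next to the start sites of 5 members are shown because they hold, or lack, the elements through which the loop acts. They are from RefSeq on GRCm38.p6, written 5′ to 3′ on the gene's strand, with matches in capitals. Each of 9 members, all but Per2, has at least 1 window from 250 bases before to 50 bases after a RefSeq start. Both strands were searched for the E-box CACGTG, the D-box TTATGTAA or TTACGTAA, the ROR element core AGGTCA, and the cyclic AMP response element TGACGTCA.

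Per3, minus strand, chr4:151044786-151044900, upstream of the start, with 2 D-boxes:
Per3: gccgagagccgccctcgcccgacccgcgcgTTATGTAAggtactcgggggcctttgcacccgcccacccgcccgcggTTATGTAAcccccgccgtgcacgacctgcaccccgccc
Per1, plus strand, chr11:69098753-69098847, an E-box and then a reversed ROR core, upstream of a RefSeq start, within the span of the counted gene model but outside its exons:
Per1: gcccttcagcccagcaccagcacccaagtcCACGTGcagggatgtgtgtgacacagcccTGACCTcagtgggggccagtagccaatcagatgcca
Cry1, minus strand, chr10:85185079-85185144, upstream, with an E-box:
Cry1: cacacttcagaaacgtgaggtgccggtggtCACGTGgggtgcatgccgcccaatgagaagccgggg
Arntl, plus strand, chr7:113207530-113207559, past the start and exonic, with a ROR core:
Arntl: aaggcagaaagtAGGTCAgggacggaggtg
Dbp, plus strand, chr7:45704997-45705087, the part of its window before the counted gene model begins, with no match:
Dbp: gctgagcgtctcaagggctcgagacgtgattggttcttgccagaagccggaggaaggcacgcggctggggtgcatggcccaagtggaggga

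D-boxes were rare: 1.23% of 27025 genes have one in a window, and among the 9 members searched only Per3 does, with matches at -205 to -198 and -158 to -151 bases from its start. E-boxes occur in windows of 8.09% of genes and in those of Per1 and Cry1. The ROR core occurs in windows of 18.1% of genes and in those of Per1, Nr1d2, Arntl and Clock. The response element is in windows of 2.03% of genes and in none of those 9 members'. A match is a description of these letters, and the lack of one says only that they are not in these windows.

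Total counts ran from 15601477 to 23061922 per library, with the Nop16 siRNA libraries the shallower ones. Nop16 itself had 388, 437 and 402 counts in the controls and 61, 72 and 84 after Nop16 siRNA, which checks the labels. Of 14269 genes tested, 45.4% had an adjusted p below 0.05, with 23.0% higher and 22.4% lower, so a called gene is common in this comparison. Macrophage markers identify the cells: of 8 tested, 5 were higher and 1 lower after Nop16 siRNA, and their summed level was 5028 to 5305 CPM (counts per 1000000, TMM scaled) in controls and 8032 to 8454 CPM after Nop16 siRNA. Lyz2 alone went from 1144 to 2934 CPM, Fcgr1 was the lower one, Adgre1 and Spi1 did not pass, and Itgam shares 68.7% of its exonic length with another model on its strand. Markers of T cells and epithelium summed to at most 0.0912 CPM, with Cd3e, Cd2, Krt8 and Krt18 at 0 counts in all libraries. B cell markers summed to at most 0.101 CPM in controls and 0.326 CPM after Nop16 siRNA, all close to the level of a few counts. Neutrophil and fibroblast markers summed to at most 1.81 CPM. Whether the higher macrophage marker level has a part in the clock gene values was not tested.

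Dbp, Per2, Nr1d1, Per3 and Nr1d2 fell, in that order of log2 fold change from -2.15 to -0.70. Arntl, Clock, Per1, Cry1 and Cry2 lay between -0.18 and 0.10 and did not pass. None rose. The count of 5 lower genes of 10 stands beside 22.4% of all tested genes, and nothing is read from it because the comparison had chosen the members. Groups did not overlap, with Nop16 siRNA below control, for 7 of the 10 genes, against 26.2% of all tested genes. The median log2 fold change was -0.44 over the 10 members and -0.0002 over all tested genes. In such bulk libraries, fewer cells expressing a gene and less RNA per cell cannot be told apart.

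**Figure D1:**
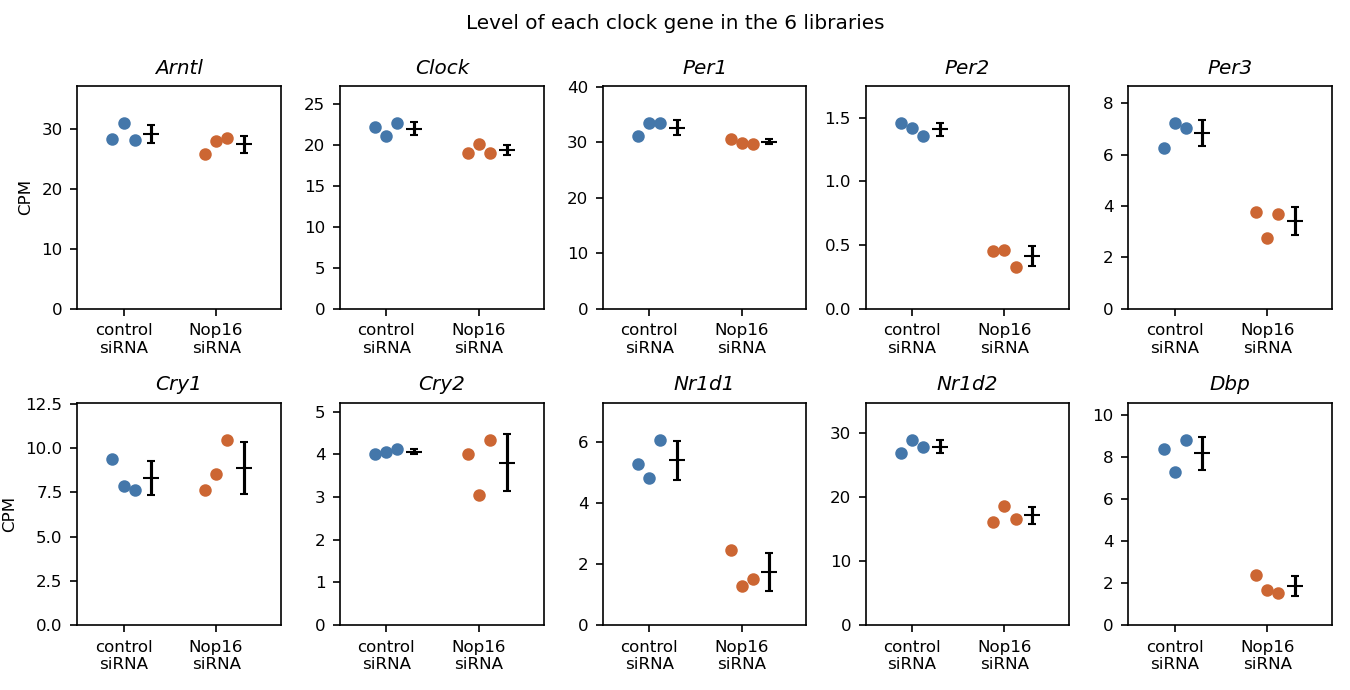
Level of each clock gene (y axis, CPM, each panel from 0) in the 3 control siRNA and 3 Nop16 siRNA libraries. Points are libraries and the black marks are mean ± SD. Dbp, Per2, Per3, Nr1d1 and Nr1d2 show a wide gap between the groups, and Arntl, Cry1 and Cry2 overlap.

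Neither activator passed the threshold. Arntl encodes BMAL1, the partner of CLOCK without which the loop stops. It stood at 28.4, 31.1 and 28.2 CPM in controls and at 25.8, 28.0 and 28.6 CPM after Nop16 siRNA. The groups overlap, and the log2 fold change was -0.09 (SE 0.0742), with a 95% interval of 85.1 to 104% of the control level. Clock encodes the partner of BMAL1, which also carries an acetyltransferase activity. It stood at 22.2, 21.2 and 22.7 CPM in controls and at 19.1, 20.2 and 19.1 CPM after Nop16 siRNA. All 3 Nop16 siRNA libraries were below all controls, but the difference was small, at a log2 fold change of -0.18 (SE 0.0827), and did not pass. Its 95% interval, 78.8 to 98.7% of control, lies wholly below the control level, but is not adjusted for the number of genes tested. Clock passed when libraries were scaled by size only or when genes below 5 CPM were left out.

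The 3 Period genes, whose proteins enter the nucleus with CRY to repress BMAL1 and CLOCK, gave 2 falls and 1 gene that did not pass. Per1, which responds rapidly to cyclic AMP and glucocorticoid signals, stood at 31.0, 33.4 and 33.4 CPM in controls and at 30.6, 29.9 and 29.7 CPM after Nop16 siRNA. The groups did not overlap, yet the gap was narrow and did not pass, with a log2 fold change of -0.12 (SE 0.0705) and an interval of 83.8 to 101.5% of control. Per2, the paralog needed for a stable rhythm in most tissues, had only 32, 33 and 27 counts in controls and 7, 8 and 6 counts after Nop16 siRNA. In CPM this was 1.46, 1.42 and 1.36 against 0.452, 0.461 and 0.326. Every Nop16 siRNA library lay far below every control, and Per2 fell to 29.4% of control, with the wide interval of 17.1 to 50.4% that so few counts give (log2 fold change -1.77, SE 0.397).

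Per3, a paralog that is not essential for the core rhythm, was measured with more counts. It stood at 6.25, 7.23 and 7.03 CPM in controls and at 3.75, 2.76 and 3.69 CPM after Nop16 siRNA. The groups are well apart, and Per3 fell to 49.7% of control (log2 fold change -1.01, SE 0.167). Within each library, the level of Per1 per kb of exon was 22.1 to 25.6 times that of Per2 in controls and 67.5 to 94.8 times after Nop16 siRNA. Per1 exceeded Per3 7.88 to 8.47 times in controls and 13.7 to 18.4 times after Nop16 siRNA. Both ratios follow from the falls of Per2 and Per3 given above, and these pairs were chosen after the values were seen.

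The Cryptochrome genes, which encode the stronger repressors of the PER and CRY complex, gave no called difference. Cry1 stood at 9.39, 7.83 and 7.64 CPM in controls and at 7.62, 8.52 and 10.5 CPM after Nop16 siRNA, with a log2 fold change of 0.10 (SE 0.132). The groups overlap fully, and the interval of 89.9 to 129% of control leaves room for a modest change either way. Without Nop16 siRNA replicate 3 the sign turned, to -0.04. Cry2 stood at 4.01, 4.04 and 4.12 CPM in controls and at 4.01, 3.05 and 4.34 CPM after Nop16 siRNA. The controls are tight and the Nop16 siRNA libraries spread around them, with a log2 fold change of -0.09 (SE 0.187) and an interval of 72.7 to 121%. Without Nop16 siRNA replicate 2, which is the low one, the value was 0.04.

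Both REV-ERB genes fell. Nr1d1, a heme-binding repressor whose RNA cycles with a large amplitude in many tissues, had 116, 112 and 121 counts in controls and 38, 22 and 28 counts after Nop16 siRNA. In CPM it stood at 5.29, 4.82 and 6.08 against 2.46, 1.27 and 1.52. Nop16 siRNA replicate 1 is the highest of its group and still below every control. Nr1d1 fell to 32.1% of control (interval 23.9 to 43.2%, log2 fold change -1.64, SE 0.217). Nr1d2, the paralog that backs it up, is the more abundant of the pair. It stood at 26.8, 29.0 and 27.8 CPM in controls and at 16.2, 18.7 and 16.6 CPM after Nop16 siRNA. The groups are clearly separate, and Nr1d2 fell to 61.6% of control (interval 55 to 68.9%, log2 fold change -0.70, SE 0.0827). The intervals of the pair do not overlap, and the difference between them was not tested.

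Dbp, a PAR bZIP transcription factor and a direct E-box target, had the lowest log2 fold change of the 10. It had 184, 170 and 176 counts in controls and 37, 29 and 28 counts after Nop16 siRNA, or 8.39, 7.31 and 8.84 CPM against 2.39, 1.67 and 1.52 CPM. No Nop16 siRNA library came near a control. Dbp was left at 22.6% of control (interval 17.6 to 29%, log2 fold change -2.15, SE 0.185), and ranked 15 from the lowest fold change among the 14269 tested genes. With every library thinned to the depth of the shallowest, an alternative chosen after the data were seen, the log2 fold change was -2.10 for Dbp, -1.69 for Per2 and -1.61 for Nr1d1, and the same number of members, 5, passed.

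**Figure D2:**
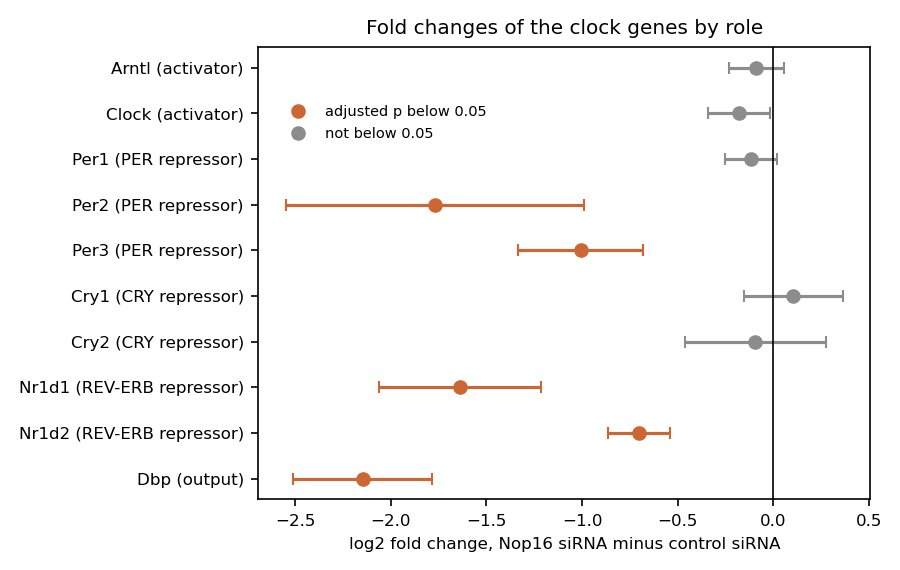
Log2 fold change of each clock gene (x axis, Nop16 siRNA minus control siRNA), grouped by role, with bars for the 95% interval. Dbp, Per2, Nr1d1, Per3 and Nr1d2, in orange, lie from -2.15 to -0.70, and the other members, in grey, lie between -0.18 and 0.10.

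Exonic overlaps of the members with other genes are all on the opposite strand. Counts used the strand, and no member shares exonic bases with another gene on its own strand. Sphk2 covers 18% of the exonic length of Dbp (chromosome 7, 45705088 to 45710203, GRCm38) on the opposite strand, and its log2 fold change was 0.16 (SE 0.0506). Thra, the thyroid hormone receptor gene, covers 8.55% of Nr1d1 (chromosome 11, 98767932 to 98775333) on the opposite strand, and its log2 fold change was -0.24 (SE 0.0967). Sphk2 was called higher (edgeR adjusted p = 0.0062) and Thra lower (edgeR adjusted p = 0.0366). Whether fragments of either neighbour enter the count of the member it overlaps was not tested.

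Scaled by exon length, the order of the members changed between the groups. In controls, Per1 was highest at 5.79 ± 0.246 CPM per kb, followed by Nr1d2 (5.15 ± 0.198), Arntl (3.89 ± 0.209), Dbp (2.73 ± 0.263), Cry1 (2.48 ± 0.288), Nr1d1 (1.75 ± 0.207), Clock (1.61 ± 0.0578), Per3 (0.711 ± 0.0541), Cry2 (0.642 ± 0.00881) and Per2 (0.241 ± 0.00881; all SD, n = 3). Neighbours with overlapping ranges were Dbp and Cry1, Nr1d1 and Clock, and Per3 and Cry2. After Nop16 siRNA, Per1 (5.34 ± 0.0869) was still highest, but Arntl (3.66 ± 0.194) stood above Nr1d2 (3.17 ± 0.246) and Cry1 (2.66 ± 0.437), with ranges that overlap from one to the next. Clock (1.42 ± 0.0459) came next. Dbp (0.622 ± 0.155) had dropped to the level of Cry2 (0.601 ± 0.106) and Nr1d1 (0.568 ± 0.203), which it overlapped, and Per3 (0.354 ± 0.0575) and Per2 (0.0705 ± 0.0129) were lowest. Lengths are of all annotated exons together, so a gene with long exons that these cells do not use is placed too low.

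**Figure D3:**
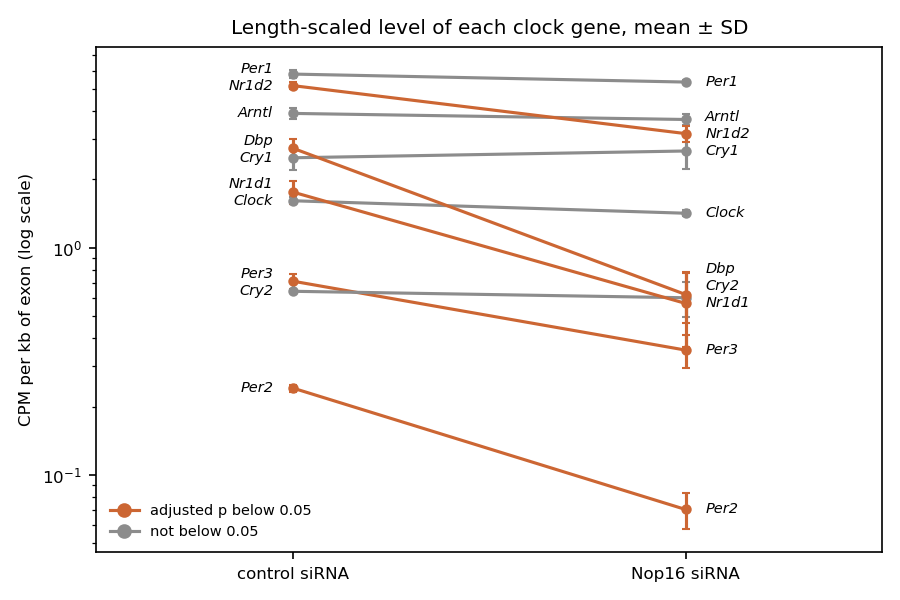
Length-scaled level of each clock gene (y axis, CPM per kb of exon, log scale) in the control and Nop16 siRNA groups, as mean ± SD of 3 libraries. Dbp and Nr1d1 pass from the middle of the order, at 2.73 and 1.75 CPM per kb, to the level of Cry2, at 0.622 and 0.568 CPM per kb.

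Other genes around the clock were read from 7 lists with 73 genes, written from their known roles but with earlier results of these data known. Of these, 64 were tested, and 28 were lower and 12 higher by the edgeR test, with a median log2 fold change of -0.11. The shares to set beside these counts are 22.4% lower and 23.0% higher over all tested genes. Because the lists were chosen with earlier results known, nothing is read from these counts or from those of each list below. Prkaa2, Adcyap1r1 and Pdk4 had 0 counts in all 6 libraries, where a floor of 3 counts lies at 0.13 to 0.192 CPM. Npas2, Arntl2, Rorb, Hlf and Il6 had too few counts for testing.

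Both tested relatives of Dbp fell. Tef, the PAR bZIP factor most abundant here, was at 51.6 ± 1.52 CPM in controls and 32.5 ± 2.98 CPM after Nop16 siRNA (a log2 fold change of -0.67, with edgeR adjusted p = 1.02e-13). Nfil3, which represses through the same D-boxes, fell from 40.2 ± 1.21 to 29.0 ± 0.735 CPM (-0.47, SE 0.0671, edgeR adjusted p = 2.88e-08).

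Of 4 tested core loop genes outside the members, 1 was lower and 1 higher. Ciart, an E-box repressor with a strong rhythm in many tissues, fell from 3.09 ± 0.705 to 1.87 ± 0.229 CPM (-0.73, edgeR adjusted p = 0.0111). Leaving out control replicate 1 ended that call (-0.53, edgeR adjusted p = 0.124), as did leaving out Nop16 siRNA replicate 2 (0.0524), within a p range of 0.00668 to 0.124 over its alternatives. Bhlhe41 (DEC2), which competes for E-boxes, rose from 132.8 ± 4.18 to 175 ± 7.24 CPM (0.40, edgeR adjusted p = 6.29e-14). Added after their values were seen, its paralog Bhlhe40 (56.6 and 52.5 CPM) and the Arntl activator Rora (18.4 and 19.9 CPM) did not pass.

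Among 19 kinases, phosphatases and ubiquitin factors of PER and CRY, 7 were lower and 2 higher. Csnk1d, the casein kinase that marks PER for decay, fell by 0.28 on the log2 scale, the ligase scaffold gene Cul4a by 0.24 and Csnk2a2 by 0.20 (edgeR adjusted p of 0.00187 or lower). Usp2, a deubiquitinase that itself cycles in many tissues, fell from 3.64 ± 0.571 to 2.47 ± 0.263 CPM (-0.55, edgeR adjusted p = 0.0325). Its call was lost in DESeq2 (adjusted p = 0.0663), with thinning (0.0657), and on leaving out control replicate 1 (0.159), control replicate 3 (0.0631), Nop16 siRNA replicate 1 (0.079) and Nop16 siRNA replicate 2 (0.0919) in turn, within a p range of 0.0171 to 0.159. Its fold change under those alternatives stayed between -0.56 and -0.44. The higher genes, named after their values were seen, were Ddb1 (0.15) and Ppp1cb (0.17), and 17.5% of Ppp1cb's exonic length is shared with another gene model on its strand.

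Of 15 cofactors of the clock complexes, 10 were lower and 1 higher, with a median log2 fold change of -0.24. Rack1, a ribosomal scaffold that joins the BMAL1 complex, fell from 1392 ± 28.7 to 892 ± 4.57 CPM (-0.64, with 4.22% of its exonic length shared with small RNA models on its strand), and Ezh2, the H3K27 methyltransferase, from 69.0 ± 1.23 to 44.5 ± 0.996 CPM (-0.64). Nono, an RNA-binding partner of PER proteins, fell by 0.35 on the log2 scale (edgeR adjusted p = 8.9e-15). Cipc, which inhibits CLOCK, was the gene that rose, from 18.8 ± 1.62 to 24.5 ± 0.37 CPM (0.38, edgeR adjusted p = 0.000119).

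Genes that carry cyclic AMP and hormone signals to the Per promoters were mixed, with 2 higher and 2 lower of 9. Sik1, a kinase that limits such signals, rose from 5.46 ± 1.2 to 8.0 ± 0.828 CPM (0.55, edgeR adjusted p = 0.00193), and Crem from 16.4 ± 0.355 to 23.9 ± 0.697 CPM (0.54). Creb1 fell by 0.23 and its coactivator gene Crtc3 by 0.24. Crtc3 lost its call without Nop16 siRNA replicate 2 (-0.17, edgeR adjusted p = 0.109, within a range of 0.00471 to 0.109).

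Clock outputs shared by many tissues had 5 lower and 2 higher of 10. Wee1, a mitotic brake that the clock controls through E-boxes, fell from 35.5 ± 1.34 to 23.8 ± 0.72 CPM (-0.58, edgeR adjusted p = 8.12e-10). Tsc22d3 (GILZ) fell from 15.4 ± 0.2 to 11.1 ± 0.99 CPM (-0.49) and Klf10 from 66.8 ± 1.47 to 47.8 ± 2.38 CPM (-0.48). Por, the cytochrome P450 reductase gene, rose from 79.9 ± 1.37 to 119 ± 4.22 CPM (0.57, edgeR adjusted p = 8.24e-18). Named after their values were seen, Klf9 (-0.44) and Tspan4 (-0.16) also fell and Cdkn1a (0.30) rose.

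Of 5 tested genes that REV-ERBs repress in macrophages, 4 were higher and 1 lower. Il1b rose from 0.431 ± 0.224 to 3.16 ± 0.552 CPM (2.86, edgeR adjusted p = 1.55e-10). It had only 15, 6 and 7 counts in controls, with a wide interval of 458 to 1152% of control. Its log2 fold change ran from 2.58 to 3.36 over its alternatives. The chemokine gene Ccl2 rose from 38.4 ± 1.33 to 95.5 ± 3.56 CPM (1.32). The fractalkine receptor gene Cx3cr1 rose from 45.5 ± 0.143 to 88.5 ± 1.86 CPM (0.96) and the inflammasome sensor gene Nlrp3 from 85.2 ± 3.92 to 123 ± 2.12 CPM (0.53). Mmp9, a matrix protease gene added after its value was seen, went the other way, from 523 ± 13.9 to 417 ± 15.7 CPM (-0.33, edgeR adjusted p = 4.58e-14). Il1b, Ccl2 and Nlrp3 are also induced by NF-kB, and the summed macrophage markers were higher in the same libraries. Whether the falls of Nr1d1 and Nr1d2 have a part in these values was not tested.

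**Figure D4:**
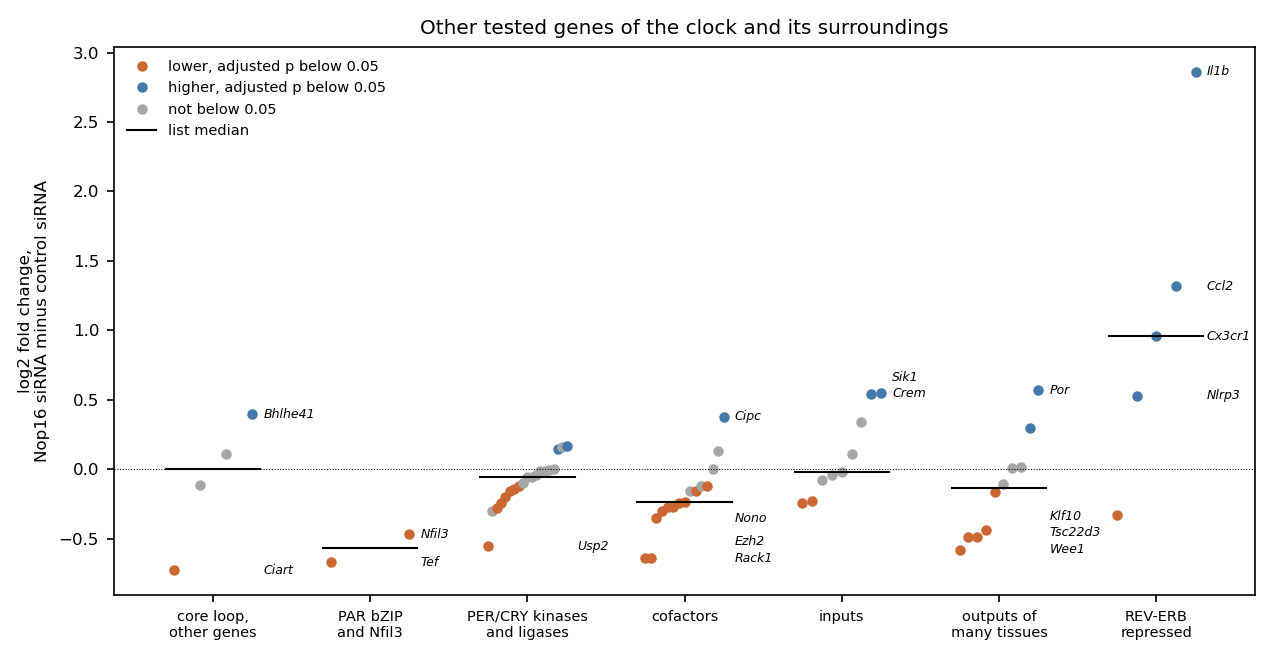
Log2 fold changes (y axis, Nop16 siRNA minus control siRNA) of the 64 other tested clock genes in their 7 lists. Points are genes, coloured by the edgeR call, and bars are list medians, from -0.57 for Tef with Nfil3 to 0.96 for the REV-ERB repressed genes.

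Lcn2, Sh2d6 and Nop16 had the profiles most like that of Dbp. Likeness was the Euclidean distance between log2 CPM profiles over the 6 libraries, each centred on its mean, among 10790 others that averaged 5 CPM or more. The distance was 0.564 for Lcn2, a secreted iron-sequestering protein gene, 0.64 for Sh2d6 and 0.656 for Nop16. Lcn2 went from 15 ± 2.09 to 2.92 ± 0.474 CPM and Sh2d6 from 8.55 ± 0.922 to 2.65 ± 0.296 CPM. With 2 groups of libraries, such a measure mainly finds genes with a fold change close to that of Dbp.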

How the data were processed

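The deposited files hold raw counts of fragments per gene, which the authors made with featureCounts 2.0.1 on Ensembl release 101 models of GRCm38, per the file headers. The headers record paired counting on strand setting 2 with a minimum overlap of 10 bases, and that fragments which map or overlap more than once were counted each time. The submitters' processing notes also list trimming with Trim Galore and the aligner HISAT2 2.2.1. The deposited exon lengths are the other column used. Symbols were matched for 55141 of 55401 identifiers.

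Counts were tested with edgeR 4.0.16 in R 4.3.3 (quasi-likelihood, robust, TMM, filterByExpr), and p was adjusted over all 14269 tested genes with a threshold of 0.05. SE was taken as fold change (log2) over the square root of F, and 95% intervals are 1.96 SE to each side. Such intervals are approximate and can be narrower than the F test implies. For Bhlhe40 the interval was 85.9 to 99.9% of control, beside an unadjusted edgeR p of 0.0519. CPM are TMM scaled, with 0.001 added only for the likeness measure. Intervals and floors cover the spread and counting error of libraries without molecular identifiers. Alternatives included DESeq2 1.42.0 and limma 3.58.1. The test was tested on simulated data: it recovered nearly all of the larger changes, with more false calls than the threshold allows. Recovery of the smallest planted changes is not reported here. How well the test finds changes as small as those of the members that did not pass is therefore not shown. Changes were planted only in genes of 5 CPM or more in controls, and in far fewer genes than were called here. Recovery of changes in genes below that level, such as Per2, Ciart, Usp2 and Il1b, was not tested. The members and lists were chosen with earlier results of these data known. The text names Nop16, all members, up to 4 called genes of each list with the largest change (the 2 most abundant where fewer than 2 passed), and the 3 profiles nearest to that of Dbp. Untested list genes, markers and overlapping neighbours are named as such, and other names are said to be added. Some listed genes are not reported here.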

Additional observations from a re-analysis of the deposited data

How the results depend on the processing

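Each of 16 alternative settings gave a count of called genes for all genes, the members and the other clock genes. All 48 of these counts kept within 1.5 times their main value. Leaving out 1 library gave 5839 to 6049 called genes in all, 5 called members each time and 37 to 40 other clock genes. Deviations from the group mean correlated at 0.017, -0.02 and -0.022 between same-numbered libraries, and at -0.015 to 0.036 between the others. With 3 libraries per group, this cannot exclude a shared culture or day, and the labels do not say what the numbers mark. With a replicate block, 6428 genes, 5 members and 40 other clock genes were called. Of 157 alternatives of member fold changes, 153 kept direction and side of the threshold. Cry1 turned to -0.0372 without Nop16 siRNA replicate 3, and Cry2 to 0.0444 without Nop16 siRNA replicate 2. With 1 library left out at a time, Cry1 ran from -0.0372 to 0.2037 and Cry2 from -0.2089 to 0.0444. Clock passed with library size scaling and with the filter of 5 CPM in 3 libraries. Library size scaling moved the log2 fold change of Clock from -0.1811 to -0.2038, and its median shift over genes was -0.0227. The cause of these Clock calls was not tested. That filter removed Per2, Cry2 and Nr1d1, which therefore have no value under it. Among the other genes that the naming rule chose, 9 of 381 alternatives lost the call, for Usp2, Ciart and Crtc3. For single genes added after their values were seen, the alternatives are not reported here. Thinning was chosen after seeing the data. Among the members, depth limits Per2 most, with 6 to 8 counts per Nop16 siRNA library.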
